A study of Arabidopsis thaliana with 14 samples.

Results

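The plastid genome of Arabidopsis thaliana carries genes for the photosynthetic apparatus, and 33 of these genes are described here across a developing seed. They were chosen by name, as the plastid loci grouped under photosystem II (15 genes), photosystem I (5), the cytochrome b6f complex (6), the ATP synthase (6) and rubisco (rbcL, the large subunit), leaving out mitochondrial atp genes. The psbN gene is counted under photosystem II by its name alone. Each of the 33 had a probe set of its own on the Affymetrix ATH1 array, among 22746 probe sets other than controls. A further 36 plastid genes had a probe set of their own, which makes 69 plastid genes in all.

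The arrays measured seeds of Ws-0, a natural accession, at the bending-cotyledon stage, in which both cotyledons of the embryo were 100 to 140 µm long and bent against the embryo axis. Siliques came from plants 38 to 46 days old, grown at 20 °C under continuous light, and seeds were fixed, embedded in paraffin, sectioned and dissected with a laser. The 7 groups were serial sections of whole seeds, the embryo proper, the chalazal endosperm, the micropylar endosperm, the peripheral endosperm and the seed coat in its chalazal and its general region, each with 2 arrays that the labels call biological replicates. RNA input to amplification was 2 to 5 ng for the micropylar endosperm and 5 to 6 ng for every other group. A label field of the micropylar arrays names the embryo proper as the cell type, against their title, source and description. The micropylar arrays are given here under the name in their title, source and description. The embryo marker YAB3, a YABBY transcription factor, had intensities of 2075 and 2128 on the embryo arrays and 8.625 and 7.639 on the micropylar arrays. YAB3 was picked with its levels in these arrays known, so its values are a description and no test of the label.

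Photosystems II and I capture light and drive electrons from water to the stromal side of the thylakoid membrane, the cytochrome b6f complex links them, and the ATP synthase uses the proton gradient that this flow builds. Rubisco fixes carbon dioxide with the products. Each complex is built from plastid-encoded and nucleus-encoded subunits, and many plastid genes are transcribed together in clusters, by a plastid-encoded RNA polymerase and a nucleus-encoded polymerase. The green Arabidopsis embryo and endosperm hold chloroplasts during seed filling, and seed photosynthesis is known as a source of oxygen and energy for oil synthesis.

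The deposited values are GCOS intensities scaled so that the trimmed mean of every array is 500, so that all differences are relative to the rest of the array. The correlation of replicate arrays over the 14765 probe sets tested was lowest in the peripheral endosperm (r = 0.867) and highest in the embryo proper (r = 0.967). Of 9 marker genes tested, SWEET10 and BAN were highest in the chalazal seed coat, ARA12 in the general seed coat and YAB3 in the embryo. All 3 embryo markers were called higher in the embryo than in the seed coat, but only 2 than in the endosperm. Of them 1 was called higher in the endosperm than in the seed coat, and 1 in the chalazal than in the general seed coat. All 4 seed coat markers were called lower in the endosperm. Within the endosperm 1 of them was called higher in the chalazal region and 3 lower. SWEET10, YAB3 and SWEET11 were picked with their levels known. The endosperm sugar transporter gene SWEET11 was at 3.991 and 56.39 in the chalazal endosperm, against 5579 and 2786 in the micropylar and 12520 and 10598 in the peripheral endosperm. Against the seed coat SWEET11, the only endosperm marker tested, was not called higher in the mean endosperm, at 0.87 on the log2 scale. The endosperm marker AGL62 was dim on every array, between 1.229 and 61.51. No chalazal endosperm marker was among those tested. An array value is the signal of a captured tissue, so fewer cells or plastids of a kind and less RNA in each of them cannot be told apart.

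All 33 members passed the filter on dim probe sets, which asks for a level above the array median on both arrays of some group only. In the chalazal endosperm and the seed coat psbM, between 122.8 and 172.4, stayed within the range of the array medians (99.1 to 188.1). Together the members made up 4.03% and 3.89% of the summed intensity in whole seeds, 2.78% and 2.72% in the embryo proper, 2.52% and 2.47% in the chalazal endosperm, 3.42% and 3.05% in the micropylar endosperm, 3.59% and 3.14% in the peripheral endosperm, 1.17% and 1.37% in the chalazal seed coat and 2.3% and 2.05% in the general seed coat. The whole-seed arrays held the highest shares and the chalazal seed coat arrays the lowest, and neither group overlapped with any other.

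By mean level over its arrays, a micropylar or peripheral endosperm region was the highest of the 6 compartments for 26 members, 13 each. The embryo proper was highest for 5 (atpA, atpB, atpE, petL and psbH) and the chalazal endosperm for 2 (psbF and psbL). The chalazal seed coat was lowest for 31 members, and the chalazal endosperm for psbM and petA. The distance between highest and lowest compartment ran from 1.07 on the log2 scale for psbD, a reaction centre protein of photosystem II, to 2.92 for atpB, the beta subunit of the ATP synthase. The micropylar and peripheral levels at the top of this order did not differ past the threshold for any member, as described for that comparison.

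**Figure D1:**
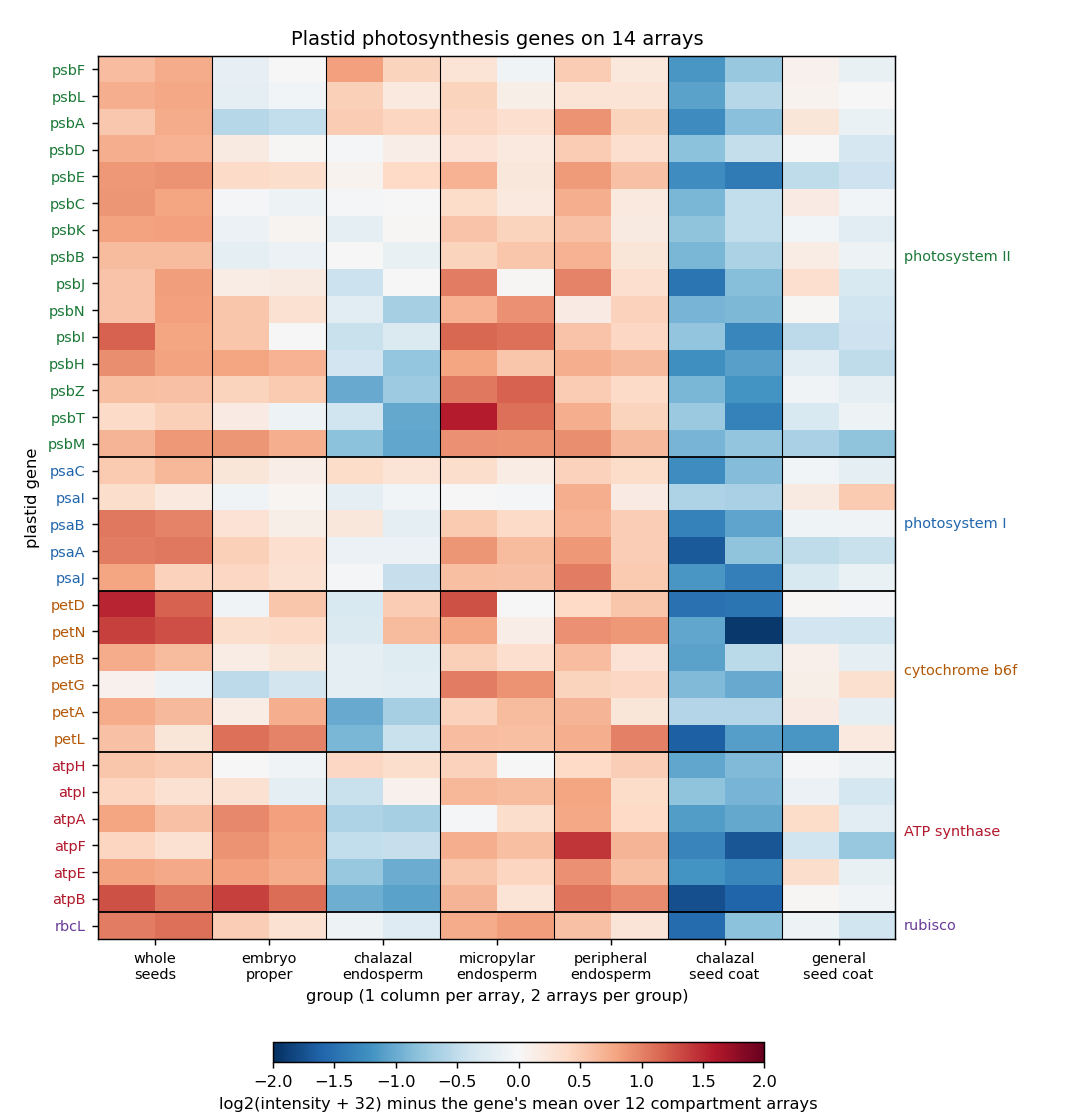
Levels of the 33 plastid photosynthesis genes (rows, grouped by complex and sorted within it by the difference in the chalazal endosperm) on 14 arrays (columns, 2 per group). Colour gives log2(intensity + 32) minus the gene's mean over the 12 compartment arrays, and values beyond 2 in either direction take the end colour. The chalazal seed coat columns are the bluest of the compartments. The atpA, atpB, atpE and atpF rows drop sharply from the embryo proper to the chalazal endosperm, while atpH rises and atpI overlaps.

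Differences were tested on log2(intensity + 32) with limma, fitting the 14 arrays together, with Benjamini-Hochberg adjustment over all 14765 probe sets tested. A gene is called higher or lower where its adjusted p is under 0.05 and its log2 difference is at least 1 in size. The comparisons share arrays, so their results are not independent of each other.

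The comparison of the embryo proper with the seed coat (the mean of its chalazal and general regions) asks how the young embryo stands against the maternal tissue around it. Of the 33 members, 14 were called higher in the embryo and 0 lower, where 21.0% of all probe sets tested were called higher and 21.3% lower. A positive difference was seen for 31 members, with a median of 0.85 against -0.09 over all probe sets tested, and 23 had an adjusted p under 0.05. At an unadjusted p under 0.05 the limma test counted 26 members higher and 0 lower. By complex, 4 of 6 ATP synthase genes, 5 of 15 photosystem II genes, 2 of 5 photosystem I genes, 2 of 6 cytochrome b6f genes and rbcL were called, with median differences of 1.38, 0.66, 0.85 and 0.86 for the 4 complexes in that order.

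The ATP synthase gene atpB showed the widest gap between embryo and seed coat. It had intensities of 16645 and 14006 in the embryo proper, against 1879 and 2101 in the chalazal and 6540 and 6117 in the general seed coat. Both embryo arrays lay above all 4 seed coat arrays, and the difference was 2.09 ± 0.19 (SE, adjusted p = 1.63e-07), or 4.27-fold. In the same complex atpF, the peripheral stalk subunit b, differed by 1.89 ± 0.22 (SE, adjusted p = 2.74e-06), atpA, the alpha subunit, by 1.39 ± 0.21 (SE, adjusted p = 3.57e-05), and atpE, the epsilon subunit, by 1.36 ± 0.18 (SE, adjusted p = 1e-05). The remaining ATP synthase genes missed the size threshold. The membrane ring subunit gene atpH differed by 0.48 ± 0.15 (SE, adjusted p = 0.0154) and atpI, subunit a, by 0.61 ± 0.23 (SE, adjusted p = 0.0359).

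Among the other complexes, petL, a small cytochrome b6f subunit, differed by 1.97 ± 0.37 (SE, adjusted p = 0.000356) and petN by 1.30 ± 0.26 (SE, adjusted p = 0.000664). For photosystem I, psaA, a reaction centre protein, differed by 1.26 ± 0.21 (SE, adjusted p = 0.000124) and psaJ by 1.10 ± 0.25 (SE, adjusted p = 0.00157), while psaB, its partner in the reaction centre, reached 0.85 ± 0.16 (SE, adjusted p = 0.000287) and was not called. The photosystem II genes called were psbM (1.60 ± 0.35 (SE, adjusted p = 0.00132)), psbH (1.49 ± 0.19 (SE, adjusted p = 6.14e-06)), psbE (1.26 ± 0.19 (SE, adjusted p = 3.7e-05)), psbZ (1.08) and psbI (1.03). These encode small membrane subunits, psbE a subunit of cytochrome b559. The seed coat values of psbM lay within the range of the array medians, so the size of its difference is uncertain. For petL, chalazal seed coat replicate 1 (181.8) lay within that range too. Its general seed coat arrays were far apart, at 262.5 and 727.9, so the size of the petL difference is also uncertain. The call of psbI was lost without embryo proper replicate 1, at 0.75, without chalazal seed coat replicate 2, at 0.90, and with quantile normalization, at 0.95, and that of psbZ with quantile normalization, at 0.99.

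The large subunit gene of rubisco, rbcL, had 32141 and 28025 in the embryo proper, against 7827 and 12862 in the chalazal and 21099 and 17190 in the general seed coat. Its embryo arrays lay above all seed coat arrays, with a difference of 1.12 ± 0.19 (SE, adjusted p = 0.000126). Without chalazal seed coat replicate 1 the difference was 0.94 and the call was lost. At the other end, petG, a small cytochrome b6f subunit, had 1979 and 2207 in the embryo proper, against 1542 and 1408 in the chalazal and 3121 and 3574 in the general seed coat. The embryo values of petG lay between those of the seed coat regions, and the difference was -0.09 ± 0.21 (SE, adjusted p = 0.761). The D1 reaction centre gene psbA likewise stood near 0, at -0.03 ± 0.18 (SE, adjusted p = 0.902).

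The endosperm (the mean of its 3 regions) was set against the seed coat in the same way. All 33 members had a positive difference under the deposited scaling, quantile normalization and median scaling alike. The median was 0.89 against -0.04 over all probe sets with the deposited scaling, 0.87 against 0.08 with quantile normalization and 1.24 against 0.26 with median scaling. The test called 13 members higher and 0 lower, where 14.2% of all probe sets tested were called higher and 18.5% lower. An adjusted p under 0.05 was reached by 31 members, and an unadjusted p under 0.05 by 32 members higher and 0 lower, so that the size threshold and not the p set the count. The count was 27 with each array scaled on its median over nuclear and unnamed probe sets and 8 without both micropylar arrays.

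Those called were psbE (1.37), psbI (1.17), psbM (1.05), psbT (1.03) and psbH (1.01) of photosystem II, psaA (1.30) and psaJ (1.12) of photosystem I, petN (1.44), petL (1.19) and petD (1.15) of cytochrome b6f, atpF (1.46) and atpB (1.01) of the ATP synthase, and rbcL (1.06). The limits given for psbM and petL in the seed coat hold here too. For psbT, chalazal seed coat replicate 2 (150.4) also lay within the range of the array medians. The complexes lay close together, with medians of 0.86 for photosystem II, 1.00 for photosystem I, 0.95 for cytochrome b6f and 0.88 for the ATP synthase. The gene with the widest gap, atpF, had 4977 and 5039 in the chalazal, 11630 and 10649 in the micropylar and 18925 and 11158 in the peripheral endosperm, against 2774 and 2114 in the chalazal and 5300 and 4120 in the general seed coat. The micropylar and peripheral values of atpF lay above every seed coat value, and the chalazal endosperm values stood inside the seed coat range. Its difference was 1.46 ± 0.16 (SE, adjusted p = 1.92e-06).

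The smallest gap was that of psaI, a small photosystem I subunit. It had 6547 and 7273 in the chalazal, 7458 and 7398 in the micropylar and 12525 and 8466 in the peripheral endosperm, against 4915 and 4784 in the chalazal and 8498 and 10801 in the general seed coat. The general seed coat values of psaI lay inside the endosperm range, and the difference was 0.24 ± 0.15 (SE, adjusted p = 0.194). The calls nearest to the size threshold depended on single arrays. That of atpB was lost, at 0.94 to 0.99, without chalazal endosperm replicate 1, micropylar replicate 1, peripheral replicate 1, chalazal seed coat replicate 1 or general seed coat replicate 2. That of psbH was lost without the same arrays other than peripheral replicate 1, at 0.94 to 0.98, that of psbT without chalazal endosperm replicate 1, micropylar replicate 1, peripheral replicate 1, chalazal seed coat replicate 2 or general seed coat replicate 1, at 0.87 to 0.98, and that of rbcL without chalazal seed coat replicate 1 (0.88) or general seed coat replicate 2 (0.99). The call of petD was lost without micropylar replicate 1, at 0.94, and that of petL without general seed coat replicate 1, at 0.85. With quantile normalization atpB (0.92) and psbH (0.90) were not called, and with an added constant of 100 atpB (0.99), psbM (0.87) and psbT (0.90) were not.

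The embryo proper and the endosperm are the filial tissues of the seed, both products of fertilization, and were compared with each other next. Few plastid photosynthesis genes were called. Of the 33 members 1 was called higher in the embryo (atpB) and 1 lower (psbA), where 14.6% of all probe sets tested were called higher and 10.9% lower. The median difference was -0.13 against 0.06 over all probe sets, and 11 members lay above 0 and 22 below. With quantile normalization 17 lay above 0 and 16 below, with a median of 0.03, so that this balance carries no direction, and with median scaling 0 were called higher and 2 lower. Adjusted p-values under 0.05 were reached by 3 members higher and 4 lower.

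The embryo values of atpB were 16645 and 14006, against 3256 and 3035 in the chalazal, 10310 and 7823 in the micropylar and 13620 and 12462 in the peripheral endosperm. Both embryo arrays lay above all 6 endosperm arrays, and the chalazal arrays were far below the other 2 regions. The difference was 1.09 ± 0.18 (SE, adjusted p = 0.000239). It was 0.96 without embryo proper replicate 1 and 0.91 with median scaling, and the call was lost in both. Next in the ATP synthase, atpA differed by 0.86 ± 0.20 (SE, adjusted p = 0.00315) and atpE by 0.66 ± 0.17 (SE, adjusted p = 0.00739), both short of the size threshold.

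The psbA gene encodes D1, the photosystem II reaction centre protein that is replaced most often after light damage. It had 16577 and 17525 in the embryo proper, against 34805 and 33009 in the chalazal, 32574 and 31131 in the micropylar and 45963 and 33364 in the peripheral endosperm. Every endosperm array stood well above both embryo arrays, and the groups did not overlap. The difference was -1.03 ± 0.17 (SE, adjusted p = 0.00019), a 2.04-fold lower level in the embryo. It was -0.94 with quantile normalization, -0.99 without embryo proper replicate 1 and -0.95 without peripheral endosperm replicate 1, and the call was lost in each. The petG gene came next, with -0.84 ± 0.20 (SE, adjusted p = 0.00433).

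By complex, the ATP synthase had a median of 0.55 between embryo and endosperm, with differences from -0.39 for atpH to 1.09 for atpB. Photosystem II had a median of -0.16, photosystem I of -0.12 and cytochrome b6f of -0.08, and rbcL stood at 0.06 ± 0.18 (SE, adjusted p = 0.848). All 5 photosystem I genes lay between -0.15 and -0.01. These medians near 0 moved with the setting and carry no direction. That of photosystem II was -0.32 with the replicate number as a block or without micropylar replicate 3 and -0.33 with median scaling. That of photosystem I was 0.06 with quantile normalization and -0.30 with median scaling, and that of cytochrome b6f 0.09 without embryo proper replicate 1 and -0.26 with median scaling. The rbcL difference was 0.49 with quantile normalization. The ATP synthase difference was not one from every endosperm region. Its level, as the median over genes centred on each gene's compartment mean, was 0.86 and 0.77 in the embryo proper. It was 0.85 and 0.55 in the peripheral endosperm, which overlapped with the embryo, 0.61 and 0.40 in the micropylar and -0.55 and -0.57 in the chalazal endosperm.

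**Figure D2:**
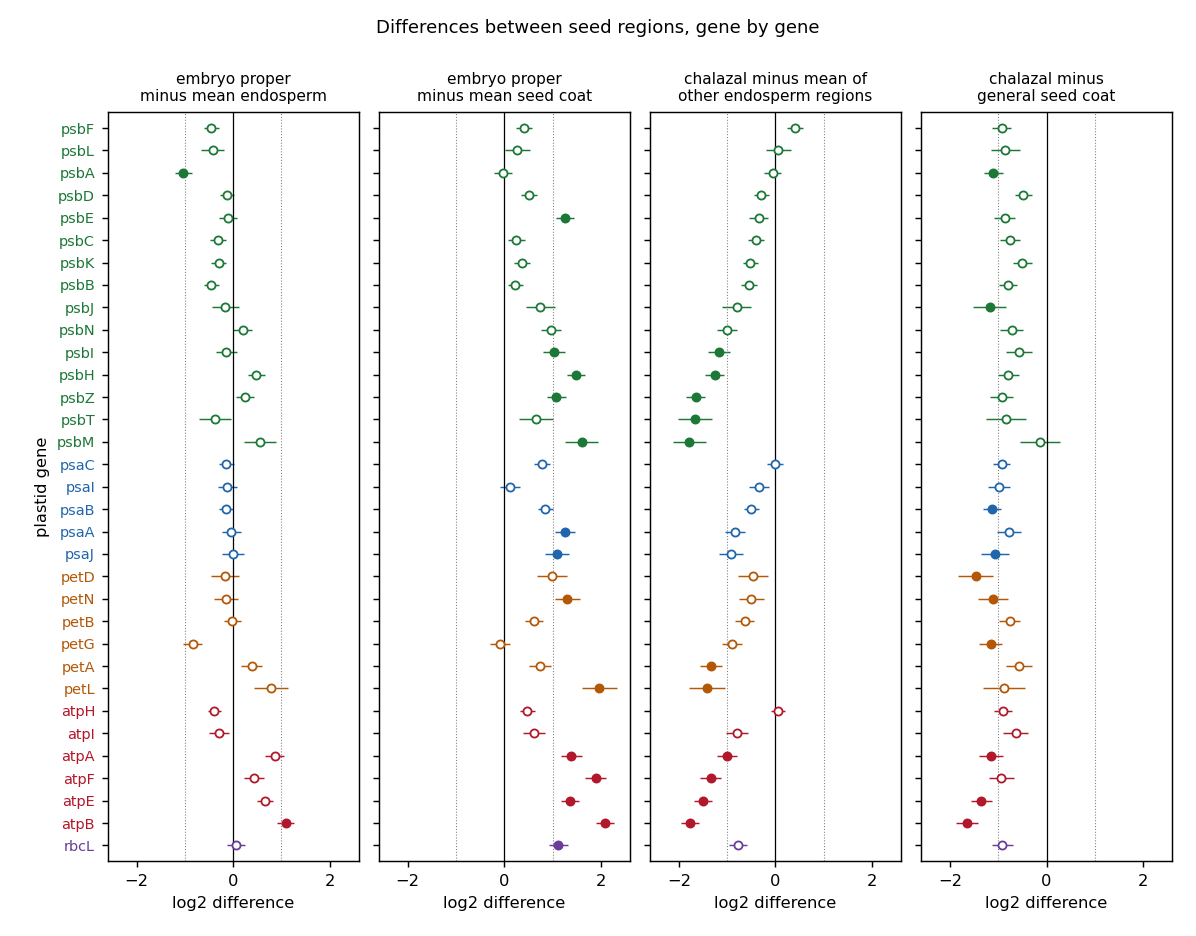
Log2 difference of each member with its standard error in 4 comparisons (panels), with genes coloured and grouped by complex as in the heat map. Filled points are called (adjusted p under 0.05 and a size of at least 1, dotted lines) and open points are not. Points shift right between embryo and seed coat, left between the chalazal and other endosperm regions with a wide spread, and left in the chalazal seed coat with a narrower spread.

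The chalazal endosperm lies at the pole where maternal vascular tissue ends, and was compared with the mean of the micropylar and peripheral endosperm. Of the 33 members 0 were called higher and 11 lower, where 19.6% of all probe sets tested were called higher and 19.4% lower. The median was -0.80 against 0.09 over all probe sets, and 30 members lay below 0. An adjusted p under 0.05 was reached by 22 members lower and 0 higher, and an unadjusted p under 0.05 by 23 lower and 1 higher (psbF). The genes spread widely, from -1.78 for psbM to 0.41 for psbF.

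The ATP synthase held 4 of its 6 genes among those called lower. Here atpB, with the intensities given above, stood at -1.77 ± 0.19 (SE, adjusted p = 1.27e-06), and its chalazal arrays lay below all 4 micropylar and peripheral arrays. The others were atpE (-1.50 ± 0.18 (SE, adjusted p = 4.23e-06)), atpF (-1.34 ± 0.22 (SE, adjusted p = 0.000124)) and atpA (-1.01 ± 0.21 (SE, adjusted p = 0.000872)). The call of atpA was lost without chalazal endosperm replicate 2 (-0.99), micropylar replicate 3 (-0.91) or peripheral replicate 1 (-0.92), with quantile normalization (-0.99) and with the replicate number as a block (-0.86). By contrast atpH, the brightest ATP synthase probe set, had 37942 and 36534 in the chalazal endosperm, against 39264 and 28564 in the micropylar and 37512 and 40157 in the peripheral endosperm. Its values in the 3 regions overlapped, and the difference was 0.05 ± 0.15 (SE, adjusted p = 0.831).

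In photosystem II 5 of 15 genes were called lower: psbM, psbT, psbZ, psbH and psbI, which all encode small subunits. The dim gene psbM had 149.2 and 122.8 in the chalazal endosperm, against 570.5 and 562.2 in the micropylar and 578.8 and 470.4 in the peripheral endosperm. The chalazal arrays of psbM lay far below the other 4, with a difference of -1.78 ± 0.35 (SE, adjusted p = 0.000647). Both chalazal values of psbM lay within the range of the array medians, so the size of this difference is uncertain. For psbT the values were 318.4 and 196.1 in the chalazal endosperm, against 1348 and 965.6 in the micropylar and 732.6 and 598.9 in the peripheral endosperm. All 4 micropylar and peripheral arrays stood above both chalazal arrays, with a difference of -1.67 ± 0.35 (SE, adjusted p = 0.00115). The rest stood at -1.65 (psbZ), -1.26 (psbH) and -1.17 (psbI), the last at -0.85 and not called without both micropylar arrays.

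The gene with the brightest photosystem II probe set had a difference above 0. It was psbF, which encodes a subunit of cytochrome b559 beside psbE, and it had 77840 and 60265 in the chalazal endosperm, against 52975 and 41812 in the micropylar and 62349 and 50714 in the peripheral endosperm. The second chalazal value lay inside the peripheral range, and the difference of 0.41 ± 0.17 (SE, adjusted p = 0.057) was not called. The psbA values listed for the embryo comparison gave -0.06 ± 0.18 (SE, adjusted p = 0.814), and psbL, another small subunit, gave 0.06 ± 0.26 (SE, adjusted p = 0.885). The larger photosystem II genes psbB, psbC and psbD, for the antenna proteins CP47 and CP43 and the D2 protein, stood at -0.55, -0.40 and -0.29.

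Cytochrome b6f had 2 of 6 genes called lower in the chalazal endosperm, petL (-1.42 ± 0.37 (SE, adjusted p = 0.00563)) and petA, the cytochrome f gene (-1.33 ± 0.23 (SE, adjusted p = 0.000164)). The call of petL was lost without chalazal endosperm replicate 1, at -1.18. The gene with the brightest probe set of the complex, petB for cytochrome b6, had 9781 and 9344 in the chalazal endosperm, against 15379 and 13991 in the micropylar and 17044 and 13553 in the peripheral endosperm. Its chalazal arrays lay below the other 4, and the difference of -0.64 ± 0.19 (SE, adjusted p = 0.0111) fell short of the size threshold. No photosystem I gene was called, and their differences ran from -0.92 for psaJ to -0.01 for psaC, the iron-sulfur protein. The reaction centre gene psaB had 35618 and 26763 in the chalazal endosperm, against 43710 and 39447 in the micropylar and 49237 and 42610 in the peripheral endosperm. All chalazal psaB values lay below the others, with a difference of -0.50 ± 0.16 (SE, adjusted p = 0.0165). For rbcL the values were 21296 and 19070 in the chalazal endosperm, against 38093 and 40460 in the micropylar and 34048 and 27128 in the peripheral endosperm, again without overlap, and the difference was -0.78 ± 0.19 (SE, adjusted p = 0.00329).

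Within the chalazal endosperm comparison, the size of the difference went with the brightness of the probe set. Across the 33 genes the mean log2 level over the compartments and the difference correlated with Pearson's r = 0.61 and Spearman's rho = 0.60, brighter genes having differences nearer 0. The brightness of a probe set depends on its probes as well as on its transcript. These genes share the same arrays and are not independent, so the values are a description. Across the other 36 plastid genes the same correlation was 0.05 (rho -0.05), and among the members it ran from -0.35 to 0.23 in the other 6 comparisons. Whether the brightness of a probe set has a part in the spread was not tested.

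**Figure D3:**
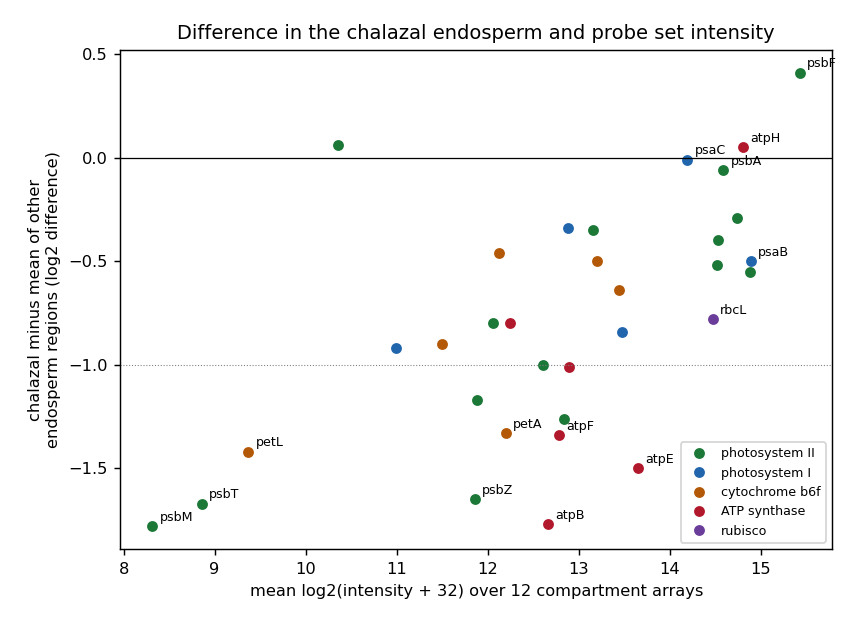
Each point is a member, coloured by complex. The x axis is its mean log2(intensity + 32) over the 12 compartment arrays and the y axis its log2 difference between the chalazal endosperm and the mean of the micropylar and peripheral endosperm. The dim genes psbM and psbT lie near the bottom left, while atpB and atpE are low at middle brightness. On the right, the bright genes psbF and atpH lie above the zero line and psaC and psbA just below it.

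Between the micropylar and the peripheral endosperm no member was called in either direction by limma, where 4.05% of all probe sets tested were called higher and 2.26% lower. At an unadjusted p under 0.05 the counts were 3 members higher and 1 lower. The median was -0.14 and the differences ran from -0.54 for atpB (adjusted p = 0.153) to 0.76 for psbT (adjusted p = 0.285). The psbT and atpB intensities are those given for the chalazal comparison. For psbT, both micropylar arrays were above both peripheral arrays, and for atpB both were below. With quantile normalization the median was 0.03, so the sign of the median depends on the scaling. These data do not show that the regions are alike, since the lowest adjusted p, 0.0988, belonged to a difference of 0.67 for psbZ.

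Within the seed coat, the chalazal region was compared with the general region. All 33 members were lower in the chalazal seed coat in mean level, under each of the 3 scalings, with a median difference of -0.90 against -0.02 over all probe sets. Of these 10 were called lower and 0 higher, where 8.17% of all probe sets tested were called lower and 8.25% higher. An adjusted p under 0.05 was reached by 23 members lower and 0 higher, and an unadjusted p under 0.05 by 30 lower and 0 higher. In 28 members both chalazal seed coat arrays lay below all other 10 compartment arrays, which held for 5.03% of all probe sets tested. These were all 6 ATP synthase genes, all 5 photosystem I genes, 12 of 15 photosystem II genes, 4 of 6 cytochrome b6f genes and rbcL. Of the other plastid genes 25 of 36 also met this rule, and of the 7 nuclear partner genes 3. This rule on separate arrays was chosen after the data had been seen.

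The widest gap was again that of atpB, with 1879 and 2101 in the chalazal and 6540 and 6117 in the general seed coat. The regions did not overlap and the difference was -1.65 ± 0.22 (SE, adjusted p = 5.2e-05), a 3.15-fold lower level in the chalazal region. Of the same complex, atpE (-1.35 ± 0.21 (SE, adjusted p = 0.000228)) and atpA (-1.15 ± 0.24 (SE, adjusted p = 0.00271)) were called, atpA not without general seed coat replicate 1, at -0.86. For cytochrome b6f, petD, subunit IV, had 1549 and 1593 in the chalazal and 4470 and 4358 in the general seed coat. Its replicates agreed closely in both regions, and the difference was -1.47 ± 0.36 (SE, adjusted p = 0.00777), with an adjusted p of 0.0536 without chalazal seed coat replicate 1. The genes petG (-1.16 ± 0.24 (SE, adjusted p = 0.00288)) and petN (-1.10 ± 0.31 (SE, adjusted p = 0.0186)) were also called, petN not without chalazal seed coat replicate 2 (-0.65) or either general seed coat array (-1.10, adjusted p = 0.0832 without replicate 1 and 0.0801 without replicate 2).

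Photosystem I and II added 2 genes each to those called lower in the chalazal seed coat. The psaB gene had 11898 and 14558 in the chalazal and 28556 and 28972 in the general seed coat, without overlap, and a difference of -1.13 ± 0.18 (SE, adjusted p = 0.000322), which was -0.98 and not called without chalazal seed coat replicate 1 and -0.77 with quantile normalization. Next to it, psaJ differed by -1.06 ± 0.29 (SE, adjusted p = 0.0158), with calls lost without chalazal seed coat replicate 2 (-0.95) or general seed coat replicate 2 (-0.97). The psbA gene had 10294 and 13728 in the chalazal and 28913 and 22445 in the general seed coat, and psbJ, a small subunit, 1516 and 2322 and 5381 and 3433 in the same regions. Neither gene overlapped between the regions, and the differences were -1.10 ± 0.20 (SE, adjusted p = 0.00109) for psbA and -1.18 ± 0.34 (SE, adjusted p = 0.0242) for psbJ. Both calls were lost without chalazal seed coat replicate 1 (-0.89 and -0.88) or general seed coat replicate 1 (-0.92 and -0.86), and that of psbA with quantile normalization, at -0.72. Without the intensity trend the adjusted p was 0.0986 for petN, 0.055 for psaJ and 0.0894 for psbJ. With median scaling petN (adjusted p = 0.0531), psbJ (adjusted p = 0.0613) and psaJ (-0.99) were not called either. The smallest gap was that of psbM, with 135 and 153.4 in the chalazal and 172.4 and 150.9 in the general seed coat, overlapping values with a difference of -0.14 ± 0.41 (SE, adjusted p = 0.866). These values lay within the range of the array medians, so psbM was not shown to be above background in either region.

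Serial sections of whole seeds hold all compartments, and were set against the mean of the 6 captured ones. Of the 33 members 6 were called higher and 0 lower, where 6.37% of all probe sets tested were called higher and 1.06% lower. The median was 0.69 against 0.16 over all probe sets. An adjusted p under 0.05 was reached by 24 members higher and 0 lower, and an unadjusted p under 0.05 by 27 higher and 0 lower. Those called were petD (1.35 ± 0.27 (SE, adjusted p = 0.00379)), petN (1.33 ± 0.23 (SE, adjusted p = 0.00144)), atpB (1.17 ± 0.17 (SE, adjusted p = 0.000309)), rbcL (1.06 ± 0.17 (SE, adjusted p = 0.000619)), psaA (1.04 ± 0.19 (SE, adjusted p = 0.0018)) and psaB (1.02 ± 0.14 (SE, adjusted p = 0.000189)).

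The petD gene had 12716 and 10079 in whole seeds, against 4217 and 6525 in the embryo proper, 3584 and 6278 in the chalazal, 10780 and 4457 in the micropylar and 5834 and 6531 in the peripheral endosperm, and the seed coat values given above. Micropylar replicate 1 stood apart from replicate 3 and above the second whole-seed array, and the call was lost without either whole-seed array (1.18 and 1.52). The psaB values in whole seeds were 62731 and 60572, and those of rbcL 46097 and 48944, both pairs above every compartment array. At the low end, petG had 3051 and 2671 in whole seeds, inside the range of the compartments, and a difference of 0.00.

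In 13 members both whole-seed arrays lay above all 12 compartment arrays, which held for 1.06% of all probe sets tested. They were psbC, psbD, psbE, psbH, psbK and psbL of photosystem II, psaA, psaB and psaC of photosystem I, petB and petN of cytochrome b6f, atpH of the ATP synthase, and rbcL. Of the other plastid genes 4 of 36 met this rule, and of the 7 nuclear partner genes 0. The rule was chosen after the data had been seen. These whole-seed results depended on the scaling. With each array scaled on its median over nuclear and unnamed probe sets, the median of all probe sets in this comparison was -0.21 in place of 0.16, that of the members 0.26, 28 members lay above 0, and 0 were called and 0 met the rule. With quantile normalization 3 were called and 5 met the rule, and without whole seeds replicate 1 2 were called.

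The difference between chalazal and other regions was itself compared between endosperm and seed coat, in a contrast added after the data had been seen. It subtracts the chalazal minus general difference of the seed coat from the chalazal difference of the endosperm. Of the 33 members 2 were called higher and 1 lower, where 10.6% of all probe sets tested were called higher and 13.2% lower. The psbF gene had 19601 and 25902 in the chalazal and 46670 and 39544 in the general seed coat, and with the chalazal endosperm values given above the contrast was 1.34 ± 0.26 (SE, adjusted p = 0.00133). For psbA it was 1.04 ± 0.27 (adjusted p = 0.0105) and for psbM -1.65 ± 0.54 (adjusted p = 0.0344). The psbM values in the chalazal endosperm and both seed coat regions lay within the range of the array medians. For psbM the contrast therefore cannot show a difference between the tissues. Just under the size threshold stood atpH at 0.95 (adjusted p = 0.00749) and psaC at 0.91 (adjusted p = 0.0124). The other 5 ATP synthase genes were not called, atpB standing at -0.12 ± 0.29 (adjusted p = 0.802).

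The complexes were compared with each other within each array, through the median over their genes of the level centred on each gene's mean over the 12 compartment arrays. The ATP synthase minus photosystem II was 0.69 and 0.75 on the log2 scale in the embryo proper, -0.38 and -0.56 in the chalazal endosperm, -0.08 and -0.05 in the micropylar endosperm, 0.16 and 0.16 in the peripheral endosperm, -0.24 and -0.33 in the chalazal seed coat, 0.00 and 0.04 in the general seed coat and 0.00 and -0.24 in whole seeds. The embryo arrays stood above all other arrays and the chalazal endosperm arrays below them. A factor common to a whole array cancels in such a difference, apart from the added constant of 32. Photosystem I minus photosystem II stayed between -0.31 and 0.16 over the 14 arrays, and cytochrome b6f minus photosystem II between -0.22 and 0.45, the highest value being embryo proper replicate 2. No p is given for these medians, since the genes were listed with earlier results of these arrays known.

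**Figure D4:**
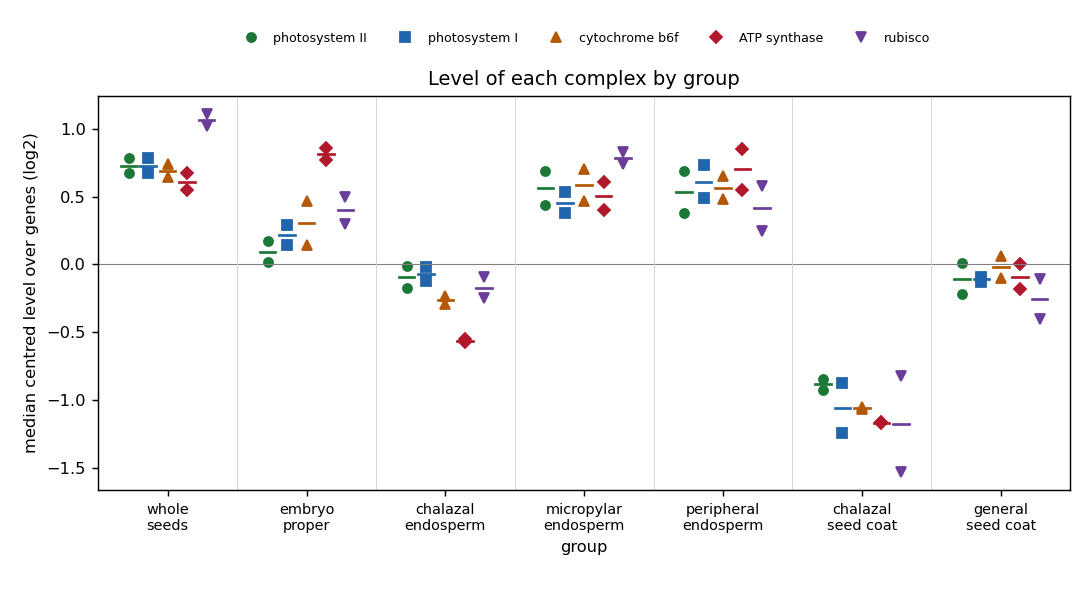
Median over the genes of each complex of the level centred on each gene's mean over the 12 compartment arrays (y axis, log2) in the 7 groups (x axis). Points are arrays, bars the mean of the 2 arrays, and rubisco is the rbcL gene alone. The ATP synthase stands above the other 4 in the embryo proper and below them in the chalazal endosperm, and all 5 are lowest in the chalazal seed coat.

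Genes of a shared cluster did not always move alike. The clusters were taken from textbook knowledge of plant plastid genomes and from the gene order in RefSeq, and neighbours in a cluster can be detected through shared precursor transcripts. In the chalazal endosperm comparison atpB and atpE, which share a cluster, lay 0.27 apart, and psaA and psaB 0.34 apart. The atpI, atpH, atpF and atpA genes spread over 1.39, from -1.34 for atpF to 0.05 for atpH, the psbD, psbC and psbZ genes over 1.36, and psbE, psbF, psbL and psbJ over 1.22. The 5 genes psbB, psbT, psbH, petB and petD spread over 1.21 there. In the chalazal seed coat comparison the spreads were smaller for 4 of these clusters, at 0.51 (atpI to atpA), 0.45 (psbD to psbZ), 0.32 (psbE to psbJ) and 0.71 (psbB to petD), and close to those of the endosperm for atpB and atpE (0.30) and for psaA and psaB (0.35). The petL and petG genes parted most between embryo and seed coat, by 2.06, with the limit given for petL in the seed coat. The psbN gene lies opposite the psbB cluster, and without knowledge of strand its signal cannot be told apart from that of the cluster. It had 9064 and 7623 in the embryo proper, against 3245 and 3320 in the chalazal and 6303 and 4675 in the general seed coat, a difference of 0.97 ± 0.21 (SE, adjusted p = 0.00116).

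Plastid genes outside photosynthesis were described with the same comparisons. Of the other 36 plastid genes, 20 were called higher in the embryo proper than in the endosperm and 0 lower, with a median of 1.15, against 1 of 33 and -0.13 for the photosynthesis genes. The 4 plastid RNA polymerase genes (4 of 4 called, median 1.79) and the 15 ribosomal protein genes (11 called, median 1.35) led, and the 10 NDH genes, for the complex of cyclic electron flow, had 3 called and a median of 0.54. For rps3, a small-subunit ribosomal protein, the values were 10112 and 10342 in the embryo proper, against 1469 and 1503 in the chalazal, 3520 and 4067 in the micropylar and 3890 and 3525 in the peripheral endosperm. The embryo arrays of rps3 stood far above all endosperm arrays, at 1.88 ± 0.20 (SE, adjusted p = 3.76e-06). The protease subunit gene clpP had 16777 and 14698 in the embryo proper and differed by -0.04 ± 0.16 (SE, adjusted p = 0.883) from the endosperm and by 0.22 ± 0.17 (SE, adjusted p = 0.314) from the seed coat. Against the seed coat 27 of 36 were called higher in the embryo, with a median of 1.69. Between endosperm and seed coat 7 of 36 were called higher, with a median of 0.60, against 13 of 33 and 0.89 for the photosynthesis genes. In the chalazal endosperm 11 of 36 were called lower with a median of -0.65, and in the chalazal seed coat 17 of 36 with a median of -0.98. Over all probe sets tested 14.6% were called higher in the embryo than in the endosperm and 21.0% than in the seed coat. The share called higher in the endosperm than in the seed coat was 14.2%. Those called lower made up 19.4% in the chalazal endosperm and 8.17% in the chalazal seed coat.

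Nuclear partner genes of the same complexes had larger median differences than the plastid genes. Of 34 nuclear genes listed, 7 had a probe set of their own: PSAE-1 and PSAN of photosystem I, PSBW and PSBY of photosystem II, ATPC1 and ATPC2, for gamma subunits of the ATP synthase, and RCA, the activase of rubisco. In the chalazal endosperm all 7 were called lower, with a median of -3.08 against -0.80 for the plastid genes. PSAN had 126.6 and 10.39 in the chalazal endosperm, against 5840 and 6976 in the micropylar and 4240 and 5691 in the peripheral endosperm, and was called lower (adjusted p = 8.05e-09). Its chalazal endosperm replicates were far apart, the second below every array median and the first within their range. Since no detection calls were used, PSAN was not shown to be above background there, and no size is given for its differences. Against the seed coat, 6 of 7 were called higher in the embryo (median 3.07, against 0.85 for the plastid genes) and 5 of 7 in the endosperm (median 2.32, against 0.89). PSAN had 11455 and 12680 in the embryo proper, against 23.39 and 66.52 in the chalazal and 1349 and 722.6 in the general seed coat, without overlap, and was called higher in the embryo (adjusted p = 2.75e-08). Both chalazal seed coat values lay below every array median, so the same limit holds. ATPC2 differed least, with 2494 and 2505 in the embryo proper, against 1372 and 1204 in the chalazal and 1356 and 1033 in the general seed coat, at 1.00 ± 0.34 (SE, adjusted p = 0.0215) and not called. Between embryo and endosperm 3 of 7 were called higher in the embryo (median 0.89), and in the chalazal seed coat 5 of 7 were called lower (median -1.65). The shares over all probe sets tested are those given for the other plastid genes. Probe sets of plastid and nuclear genes differ in brightness, and the difference between the lists was not tested.

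**Figure D5:**
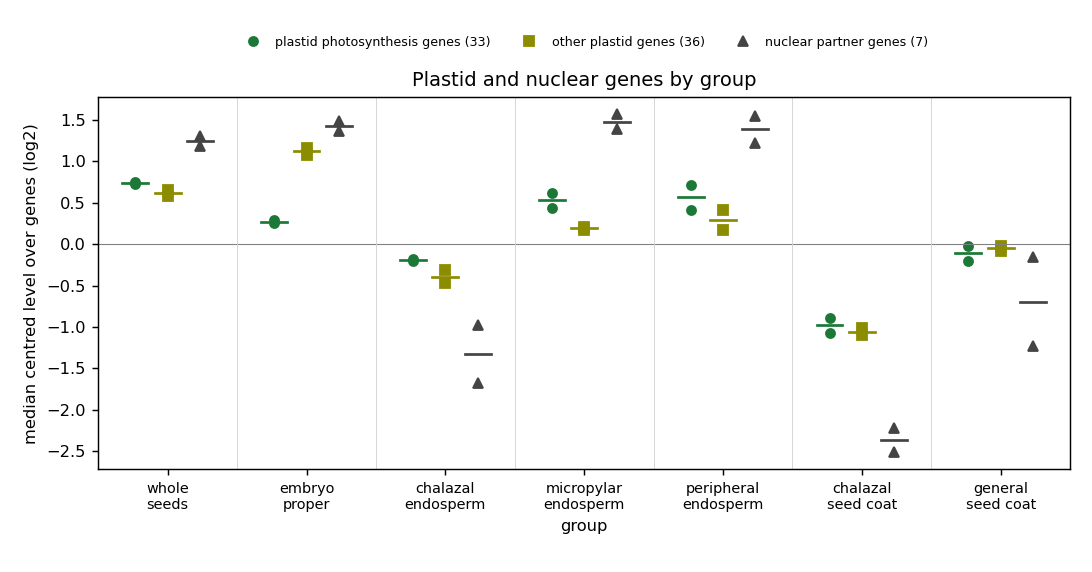
Median centred level (y axis, log2, relative to each gene's mean over the 12 compartment arrays) of the 33 plastid photosynthesis genes, the 36 other plastid genes and the 7 nuclear partner genes in each group (x axis). Points are arrays and bars the mean of the 2 arrays. The other plastid genes stand above the photosynthesis genes in the embryo proper, and the nuclear genes lie between 1.22 and 1.57 in the embryo, micropylar and peripheral arrays and at -2.22 and -2.51 in the chalazal seed coat.

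The remaining members lay inside the ranges given. In the embryo against the seed coat, the 10 photosystem II genes not called ran from -0.03 for psbA to 0.97 for psbN, among them psbB (0.23), psbC (0.25), psbD (0.51) and psbK (0.37). The iron-sulfur protein gene psaC reached 0.78 ± 0.16 (SE, adjusted p = 0.000678) there without a call, and the cytochrome f gene petA 0.74 ± 0.23 (SE, adjusted p = 0.0127). In the chalazal endosperm comparison psbN had 5330 and 3876 in the chalazal, against 9986 and 11661 in the micropylar and 6899 and 8527 in the peripheral endosperm, with an adjusted p of 0.00115 and a size just short of the threshold. Of the genes not called there, psaA (-0.84), petG (-0.90), atpI (-0.80) and psbJ (-0.80) had adjusted p-values under 0.05 and psbE (-0.35), petN (-0.50), petD (-0.46) and psaI (-0.34) did not.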

How the data were processed

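The 14 ATH1 arrays (7 groups, 2 biological replicates each per the labels) were deposited as linear intensities from GCOS, per the submitters' processing notes, which give no version. Every array had been scaled by the authors to a 2% trimmed mean of 500, as found from the values, which ran from 0.0601 to 402000 with array medians of 99.1 to 188.1. RNA was amplified and labelled as cDNA with NuGEN kits, per the labels' protocols. Plastid transcripts lack the stable poly(A) tails of nuclear messages, and the labels say neither which primers were used nor whether the product kept its strand. No detection calls were used, and the number of arrays limits the precision.

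Of 22810 probe sets, 64 controls were left out, and 14765 were tested, those brighter than the array median on both arrays of some group. Deposited intensities were taken to log2(value + 32). The fit used lmFit and eBayes (with an intensity trend) of limma 3.58.1 in R 4.3.3, 1 coefficient per group over all 14 arrays (7 residual degrees of freedom, median 16.99 after moderation), with Benjamini-Hochberg adjustment. The added constant of 32 makes differences of dim probe sets smaller than they are on the linear scale. The code was tested on simulated data.

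Probe sets were named through GEO's platform annotation, with symbols and gene order from RefSeq TAIR10.1 and no coordinates. The annotation gave 13513 probe sets 1 gene, 503 several and 8794 none. The members and all lists were chosen with earlier results of these data known. Of a list of 36 plastid expression machinery genes 0 had a probe set of their own, and of 33 markers 10 had. Values on every array are given for the brightest member of each complex, the members with the highest and lowest difference in each comparison, rbcL, psbA and, of the nuclear and other plastid lists, the genes with the highest and lowest difference between embryo and seed coat. A few others, such as psbJ and psbN, were added after their values were seen. Alternatives were 2 other added constants, no filter, quantile normalization, median scaling, no trend, the replicate number as a block and each array left out.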

Additional observations from a re-analysis of the deposited data

Results flagged for a closer look

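The chalazal difference of the endosperm (chalazal minus the mean of the micropylar and peripheral regions) and that of the seed coat (chalazal minus general) differed past the threshold in the limma test of the difference itself for 3 of 33 members, 2 higher and 1 lower. Over all probe sets tested 10.6% were called higher and 13.2% lower, so the members' share is no larger than that of probe sets in general. For psbF it was 1.34 on the log2 scale (adjusted p = 0.00133), with 0.41 in the endosperm and -0.93 in the seed coat. It was 0.86 (adjusted p = 0.0121) with quantile normalization, short of the size threshold, and past the threshold under every other alternative run.

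For psbA the value was 1.04 (adjusted p = 0.0105), with -0.06 in the endosperm and -1.10 in the seed coat. It was not past the threshold with quantile normalization (0.87), with median scaling (0.84), without the intensity trend (adjusted p = 0.115), without peripheral endosperm replicate 2 (0.92), chalazal seed coat replicate 1 (0.83) or general seed coat replicate 1 (0.86), or without both micropylar arrays (0.89).

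For psbM the value was -1.65 (adjusted p = 0.0344), with -1.78 in the endosperm and -0.14 in the seed coat. Its seed coat and chalazal endosperm values lay within the range of the array medians (99.1 to 188.1). It was not shown to be above background there, so the contrast cannot show whether its chalazal difference differs between endosperm and seed coat. The psbM gene is the dimmest member, and its adjusted p was 0.052 without the filter and 0.0654 with the replicate block. Its call was also lost with many single arrays left out. Among these were either whole-seed array and either embryo array, which enter the contrast only through the shared estimate of spread.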

How the results depend on the processing

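No result changed direction past the threshold under any alternative run. Of 384 counts of members recomputed over settings, 348 stayed equal to the main count or within 1.5 times it. That figure includes counts that were 0 in the main fit and 0 again, such as both directions for micropylar against peripheral endosperm. It therefore overstates how stable the other counts were. Members called higher in the embryo than in the endosperm (1) were 0 with median scaling and 0 to 1 with an array left out, and those called lower (1) were 0 with quantile normalization, 2 with median scaling and 0 to 1 with an array left out. Members called higher in the endosperm than in the seed coat (13) were 27 with median scaling, 8 without both micropylar arrays (an alternative chosen after seeing the data) and 9 to 16 with an array left out. Members called higher in whole seeds (6) were 3 with quantile normalization, 0 with median scaling and 2 to 7 with an array left out. Members whose whole-seed arrays lay above all others (13) were 5 with quantile normalization, 0 with median scaling and 13 to 16 with an array left out, and those with the chalazal seed coat arrays lowest (28) 28 to 30. With an array left out, the counts were 13 to 15 for embryo against seed coat, 11 to 12 for the chalazal endosperm and 8 to 13 for the chalazal seed coat. In the comparison of the chalazal differences, 2 called higher were 0 with quantile normalization, 1 with median scaling, 1 without the trend, 1 without both micropylar arrays and 1 to 4 with an array left out, and 1 called lower was 0 without the filter, with the replicate block, without both micropylar arrays and 0 to 1 with an array left out. The cause of these moves was not tested.

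Median scaling moved the median of all probe sets from 0.06 to -0.09 for embryo against endosperm and from -0.09 to 0.07 for embryo against seed coat, and turned the split of all calls, higher and lower, from 2096 and 2726 to 3186 and 2020 for endosperm against seed coat and from 940 and 156 to 499 and 693 for whole seeds. Replicate numbers showed no large shared effect, with correlations of deviations between -0.0307 and 0.0446 over 15 pairs of groups. These correlations cannot settle whether samples with the same number were paired. With the replicate block the counts were 2 (embryo against endosperm), 14 (embryo against seed coat), 16 (endosperm against seed coat), 11 (chalazal endosperm), 10 (chalazal seed coat) and 6 (whole seeds). Micropylar against peripheral endosperm has no value without the micropylar arrays.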
